A study of Saccharomyces cerevisiae with 8 samples.

Results

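The genes described here are 37 yeast genes of fatty acid breakdown in the peroxisome, chosen by name and function from the 6225 genes on the array and found through their systematic names. They fall into 16 metabolic genes (beta-oxidation enzymes, acyl-CoA activation and import, and the malate and carnitine shuttles), 2 genes of transcriptional regulators, and 19 PEX genes, whose products, the peroxins, build the organelle. All 37 were measured by 1 probe each, printed as 2 spots, and all 37 passed the filter on dim probes, which 5650 genes passed in all.

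The series measured mRNA of S288C, the strain of Saccharomyces cerevisiae that was sequenced for the reference genome, on 8 two-colour arrays. On every array the Cy5 channel held exponentially growing cells from a batch culture in minimal medium, sampled at 16, 17, 19, 20, 21, 22, 23 and 24 h, with 1 array per time. The Cy3 channel held the same strain aged 64 h, a common RNA that was never sampled again, and the dyes were never swapped. The carbon source is not given in the labels, nor whether the samples came from separate cultures, so each p-value measures only the spread between these arrays, which may be technical.

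Yeast breaks down fatty acids only in peroxisomes, where each cycle of beta-oxidation cuts an acetyl-CoA from the chain. Acetyl units leave the organelle as acetylcarnitine or through the glyoxylate cycle. Glucose represses many genes of the pathway, and fatty acids induce them through the activator pair Oaf1 and Pip2 together with Adr1. Peroxins act at another level: they insert membrane proteins, carry enzymes across the membrane by their targeting signals, recycle the receptors and divide the organelle.

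The scanner files of 2 arrays did not match the authors' value table at their recorded times. Across the 5609 genes of the authors' value table, the file recorded at 20 h had a correlation of -0.55 to the column of that time and of 0.92 to the 24 h column. For the file recorded at 24 h, the correlation was -0.50 to the column of that time and 0.87 to the 20 h column. The remaining 6 files were closest to the column of their recorded time (0.49 to 0.95). The times are therefore given as recorded, and the time results stand beside a fit on the 6 undisputed arrays and a fit in which the 20 h and 24 h files trade places, called exchanged here. Arrays of 16, 19, 22, 23 and 24 h shared slide 1, and those of 17, 20 and 21 h shared slide 2. Of 12512 gene spots on an array, 84.1% to 91.6% exceeded background clearly in growing cells and 89.5% to 91.1% in 64 h cells. The 2 slides were scanned in separate sessions, so slide and scan cannot be told apart. For POX1, FOX2 and POT1, scanner ratio and authors' value differed by a constant within each slide once the 20 h and 24 h files traded places. The 2 sources thus exchange these times, and which of them is wrong is not known.

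Relative to all genes, growing cells held less mRNA than 64 h cells for most of the 37 genes. The metabolic genes were further down than the peroxins. The measure is the log2 ratio of growing over 64 h cells, and its mean over the 8 arrays was tested against 0 with limma at an adjusted p of 0.05. By this test 30 of the 37 genes were lower in growing cells, 3 were higher and 4 did not pass. Among all 5650 genes tested, 42.6% were lower and 40.3% higher. Of the 16 metabolic genes, 14 were lower and none was higher, with a median log2 ratio of -1.22. Of the 19 peroxin genes, 14 were lower and 3 were higher, with a median of -0.37, against -0.02 for all genes. After loess normalization, at least a 2-fold lower level was called for 10 of the 16 metabolic genes and 2 of the 19 peroxin genes. Among all genes, 10.2% were at least that much lower in growing cells. The ratio was below 0 on all 8 arrays for 13 of the metabolic genes, for both regulators and for 12 of the peroxins, as it was for 35.9% of all genes. Fewer cells that express a gene and less of its RNA per cell cannot be told apart in such bulk RNA. Spread among 64 h cells does not enter this test, and any dye bias does. The loess normalization drew the ratios of each array towards 0 at every level of brightness. A ratio thus sets a gene against genes of similar brightness, and total mRNA per cell was not measured. With arrays centred on their medians over all genes instead, 31 of the 37 genes were lower and 3 were higher. The median log2 ratio was then -1.22 for the metabolic genes and -0.36 for the peroxins.

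**Figure D1:**
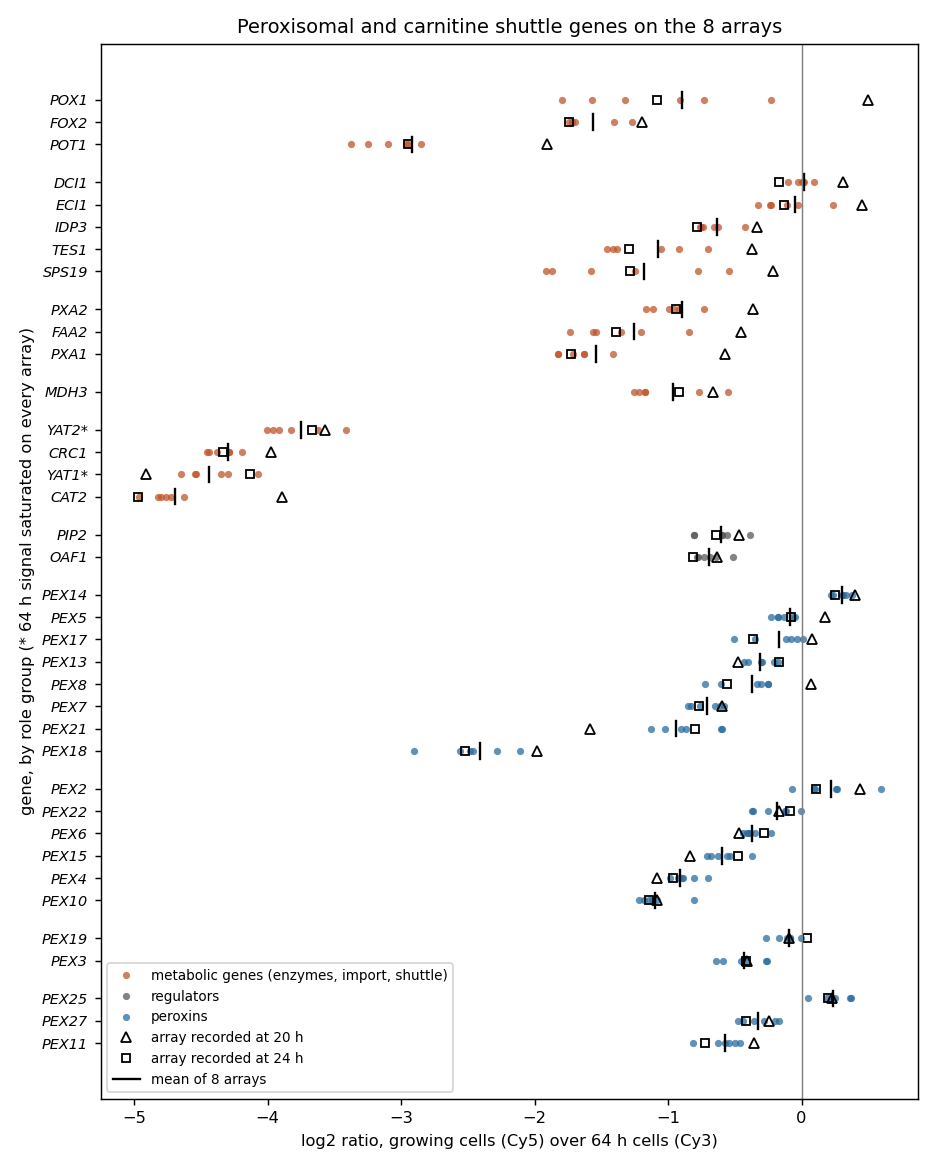
Log2 ratio of growing over 64 h cells for each of the 37 genes, with 1 point per array and a line at the mean of the 8 arrays; colours mark metabolic genes, regulators and peroxins, and hollow symbols mark the arrays recorded at 20 h and 24 h. The 4 carnitine shuttle genes lie lowest, and most peroxin genes lie between 0 and -1.

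The 3 core enzymes of beta-oxidation were all lower in growing cells. POX1 (YGL205W) encodes the acyl-CoA oxidase that opens each cycle. Its log2 ratio ranged from -1.80 to 0.50 with a median of -0.99, and it was below 0 on 7 of 8 arrays, the exception being the array recorded at 20 h. Its mean was -0.89 ± 0.20 (SE, n = 8), or 1.86-fold lower (limma adjusted p = 0.0023). FOX2 (YKR009C), the multifunctional enzyme of the hydration and dehydrogenation steps, ranged only from -1.74 to -1.20 with a median of -1.71, which made it 2.95-fold lower (limma adjusted p = 8.9e-08). POT1 (YIL160C), the thiolase that releases acetyl-CoA, ranged from -3.37 to -1.90 with a median of -2.95. It was lower by a mean of -2.92 ± 0.14 (SE, n = 8, limma adjusted p = 6e-08). Its growing-cell signal was well above background on only 4 of the 8 arrays, and the scanner software's ratios gave a mean of -4.36, so the size of the difference is not settled. The 3 genes thus differed in depth, with POT1 the furthest down, and after loess POX1 was the most variable between arrays.

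The auxiliary enzymes, which handle unsaturated chains or free the acyl group, were split. SPS19 (YNL202W), a 2,4-dienoyl-CoA reductase, ranged from -1.92 to -0.21 with a median of -1.27, below 0 on all 8 arrays, and was 2.27-fold lower (limma adjusted p = 6.1e-05). TES1 (YJR019C), the peroxisomal thioesterase, ranged from -1.45 to -0.37 with a median of -1.17 and was 2.10-fold lower (limma adjusted p = 1.3e-05). When arrays were centred on their medians, the TES1 ratios ranged from -1.30 to -0.05, nearer 0 on each array. IDP3, the peroxisomal isocitrate dehydrogenase that supplies NADPH to the reductase, averaged -0.63 ± 0.06 (SE, n = 8, limma adjusted p = 6.4e-06), or -1.36 in the scanner software's ratios, with growing-cell signal above background on 5 of 8 arrays. The isomerase genes did not pass. ECI1 (YLR284C), the enoyl-CoA isomerase, ranged from -0.33 to 0.45 with a median of -0.12 and a mean of -0.05 ± 0.08 (SE, limma adjusted p = 0.62). Its relative DCI1 (YOR180C) ranged from -0.17 to 0.31 with a median of 0.0066 and a mean of 0.02 ± 0.05 (SE, limma adjusted p = 0.78). The sign of both depended on the processing: ECI1 averaged 0.06 in the scanner software's ratios, and DCI1 averaged -0.20 when arrays were centred on their medians (limma adjusted p = 0.014). The arrays of ECI1 and DCI1 thus lay on both sides of 0, while those of SPS19, TES1 and IDP3 lay on one side.

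Genes for activating and importing fatty acids were lower in growing cells as a group, with all 3 passing the test. FAA2 (YER015W), a peroxisomal acyl-CoA synthetase for medium chains, ranged from -1.73 to -0.45 with a median of -1.37 and was 2.39-fold lower (limma adjusted p = 7.2e-06). PXA1 (YPL147W) and PXA2 (YKL188C) encode the subunits of the transporter that carries long-chain acyl-CoA into the organelle. PXA1 ranged from -1.82 to -0.58 with a median of -1.67, and PXA2 ranged from -1.17 to -0.37 with a median of -0.95. They were 2.91-fold and 1.86-fold lower (limma adjusted p = 2.7e-06 and 3.3e-06), with the growing-cell signal of PXA2 above background on 7 of 8 arrays. PXA1 had the lower ratio on all 8 arrays, by -0.64 ± 0.19 (SD, n = 8, exact sign-flip permutation test, two-sided p = 0.0078, the smallest that 8 arrays can give, and 0.0091 adjusted over 7 pairs of genes). The array recorded at 20 h gave the highest ratio for all 3 genes. MDH3 (YDL078C), the malate dehydrogenase that reoxidises NADH inside the peroxisome, ranged from -1.25 to -0.55 with a median of -1.05. It was 1.95-fold lower (limma adjusted p = 9.8e-07), with a mean of -0.96, which was -0.30 with median centring (limma adjusted p = 0.0017).

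After loess, the carnitine shuttle genes were the lowest of the 37. CAT2 (YML042W), the acetyltransferase found in peroxisomes and mitochondria, had spot signals of 217 to 481 in growing cells and 7651 to 12180 in 64 h cells before background correction. Its log2 ratio ranged from -4.97 to -3.90 with a median of -4.78, and its mean was 25.9-fold lower (limma adjusted p = 7.7e-10). CRC1 (YOR100C), the mitochondrial carrier that takes up acetylcarnitine, ranged from -4.46 to -3.98 with a median of -4.31 and was 19.6-fold lower (limma adjusted p = 1.2e-11). Growing and 64 h signals of both genes were far apart on every array. The acetyltransferase genes outside the peroxisome, YAT1 (YAR035W) and YAT2 (YER024W), gave a saturated Cy3 signal on all 8 arrays, so only a bound holds. After loess, growing cells held at least 21.6-fold less YAT1 mRNA and at least 13.4-fold less YAT2 mRNA (limma adjusted p = 1.4e-10 and 4e-11). These bounds depend on the scaling. The mean log2 ratios of YAT1 and YAT2 were -4.44 and -3.75 after loess and -4.30 and -3.64 in the scanner software's ratios. With arrays centred on their medians, those of YAT1 and YAT2 were -3.83 and -3.11. Their measured log2 ratios ranged from -4.91 to -4.07 with a median of -4.44 for YAT1, and from -4.00 to -3.42 with a median of -3.75 for YAT2. Because the 64 h signal of both was cut off by the scanner, no difference between them is read from these values. The rank of YAT1 and YAT2 among the 37 also turned with the processing. In the scanner software's ratios POT1 had a lower mean than both, and PEX18 had a lower mean than YAT2. With arrays centred on their medians, POT1 was slightly below YAT2. Without the 4 carnitine genes, 10 of the other 12 metabolic genes were lower, with a median log2 ratio of -1.02.

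The regulator genes were lower in growing cells by similar amounts. OAF1 (YAL051W) encodes the fatty acid-binding partner of the activator pair and PIP2 (YOR363C) its induced partner. OAF1 ranged from -0.81 to -0.52 with a median of -0.71, and PIP2 ranged from -0.80 to -0.39 with a median of -0.59. They were 1.62-fold and 1.52-fold lower (limma adjusted p = 9.5e-08 and 3.9e-06). All 8 arrays were below 0 for both. The difference between them, -0.09 ± 0.15 (SD, n = 8), had a two-sided p of 0.125 in the exact sign-flip permutation test, and 5 of 8 arrays gave OAF1 the lower ratio.

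Of the 8 peroxins of cargo import, 6 were lower in growing cells, PEX14 was higher and PEX5 did not pass, and the group's median log2 ratio was -0.34. The receptors and their helpers were uneven. PEX5 encodes the receptor for enzymes with the common C-terminal signal, and its mean was -0.09 ± 0.05 (SE, n = 8, limma adjusted p = 0.12). Without the array recorded at 20 h it averaged -0.13 and passed (limma adjusted p = 0.013). PEX7, the receptor for the rarer N-terminal signal that Pot1 carries, was 1.63-fold lower (limma adjusted p = 4e-07). Pex7 works with either of the related coreceptors Pex18 and Pex21. PEX18 (YHR160C) ranged from -2.90 to -1.98 with a median of -2.47 and averaged -2.41 ± 0.09 (SE, n = 8, limma adjusted p = 1.7e-08), or -3.75 in the scanner software's ratios, with growing-cell signal above background on 4 of 8 arrays. PEX21 (YGR239C) ranged from -1.59 to -0.59 with a median of -0.88 and was 1.92-fold lower (limma adjusted p = 1.4e-05). PEX18 was below PEX21 on all 8 arrays (exact sign-flip permutation test, two-sided p = 0.0078, adjusted 0.0091 over 7 pairs). The size of that difference is not settled, at -1.47 after loess and -2.91 in the scanner software's ratios.

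The docking peroxins, which receive the loaded receptors at the membrane, moved in different directions. PEX14 (YGL153W) ranged from 0.22 to 0.40 with a median of 0.30, above 0 on all 8 arrays, and was 1.23-fold higher in growing cells (limma adjusted p = 3.3e-05). PEX13 was 1.24-fold lower (limma adjusted p = 0.00023), and PEX8, which joins the docking and ring complexes from inside the organelle, was 1.29-fold lower (limma adjusted p = 0.0021). PEX17 was 1.13-fold lower (limma adjusted p = 0.047). Its call was lost in 9 of the alternatives, including the scanner software's ratios (-0.08, limma adjusted p = 0.37) and the fits without the array of 16, 19, 21, 22, 23 or 24 h, whose means lay between -0.12 and -0.19 and whose adjusted p-values lay between 0.054 and 0.12.

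Among the ring and recycling peroxins, 5 of 6 were lower in growing cells and PEX2 was higher, with a median log2 ratio of -0.48. Pex2 and Pex10 are ring-finger ubiquitin ligases of the same complex. PEX10 (YDR265W) ranged from -1.21 to -0.81 with a median of -1.13 and was 2.14-fold lower (limma adjusted p = 2e-08). PEX2 (YJL210W) ranged from -0.07 to 0.60 with a median of 0.18 and was 1.17-fold higher (limma adjusted p = 0.0078), above 0 on 7 of 8 arrays. Every array of PEX10 was thus below every array of PEX2. PEX4 (YGR133W), the ubiquitin-conjugating enzyme that marks receptors for recycling, ranged from -1.09 to -0.70 with a median of -0.91 and was 1.88-fold lower (limma adjusted p = 5.8e-08). Its membrane anchor PEX22 was 1.14-fold lower (limma adjusted p = 0.0033). PEX6, an ATPase that pulls receptors out of the membrane, was 1.29-fold lower, and its anchor PEX15 was 1.51-fold lower (limma adjusted p = 9.2e-06 and 4e-06).

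Of the genes that place membrane proteins, PEX3 (YDR329C), the docking factor, ranged from -0.64 to -0.26 with a median of -0.42 and was 1.35-fold lower (limma adjusted p = 2.9e-05). PEX19 (YDL065C), the carrier that binds it, ranged from -0.26 to 0.04 with a median of -0.09 and did not pass (mean -0.10 ± 0.04, SE, n = 8, limma adjusted p = 0.056). With the slide in the model, PEX19 passed at a mean of -0.11 (limma adjusted p = 0.018). PEX11, PEX25 and PEX27 encode related proteins of peroxisome division. PEX11 (YOL147C) ranged from -0.81 to -0.36 with a median of -0.56 and was 1.49-fold lower (limma adjusted p = 6.2e-06), but it averaged -0.12 and did not pass when arrays were centred on their medians (limma adjusted p = 0.10). PEX27 (YOR193W) ranged from -0.47 to -0.17 with a median of -0.32 and was 1.25-fold lower (limma adjusted p = 0.00013), with growing-cell signal above background on 7 of 8 arrays. PEX25 (YPL112C) ranged from 0.05 to 0.37 with a median of 0.22 and was 1.18-fold higher in growing cells (limma adjusted p = 0.00051), with a mean of 0.55 when arrays were centred on their medians. PEX25 lay above both relatives on all 8 arrays, also under each of 3 other scalings. PEX11 was below PEX25 by -0.81 ± 0.16, and PEX25 was above PEX27 by 0.56 ± 0.12 (SD, n = 8; two-sided p = 0.0078 each in the exact sign-flip permutation test, 0.0091 adjusted over 7 pairs). The order of PEX11 and PEX27 turned with the scaling: PEX11 minus PEX27 was -0.25 ± 0.09 after loess, 0.38 ± 0.22 with median centring (adjusted p = 0.0091 in the same exact test for both) and -0.0049 ± 0.12 in the scanner software's ratios (SD, n = 8, exact test adjusted p = 0.91), so no order is read.

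A further 34 genes with peroxisomal or adjoining roles were counted in the same way, of which 25 were lower in growing cells, 5 were higher and 4 did not pass, with a median log2 ratio of -0.45. The named genes of this list that were lower were chosen in part for the size of their ratio. MLS1, malate synthase of the glyoxylate cycle, averaged -7.28 ± 0.04 (SE, n = 8, limma adjusted p = 3.9e-14). ICL1, isocitrate lyase of the same cycle, was saturated in the 64 h channel on all 8 arrays. It was at least 23.7-fold lower after loess (limma adjusted p = 4e-11). CTA1, the peroxisomal catalase that removes the hydrogen peroxide made by Pox1, averaged -3.00 ± 0.07, and PCS60, a peroxisomal AMP-binding protein, averaged -3.30 ± 0.06 (SE, n = 8, limma adjusted p = 8.5e-10 and 1.2e-10). For CIT2, the peroxisomal citrate synthase, at least 1 Cy3 spot was saturated on every array. After loess, growing cells held at least 3.26-fold less of it (limma adjusted p = 1.2e-09). ADR1, the activator that acts with Oaf1 and Pip2, averaged -2.15 ± 0.16, and ANT1, the peroxisomal ATP carrier, averaged -0.25 ± 0.04 (SE, n = 8, limma adjusted p = 1.2e-06 and 0.0002).

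The genes of this further list that were higher in growing cells included genes of fatty acid uptake and activation. FAA1 and FAA4, the main synthetases for long chains taken up from the medium, averaged 0.91 ± 0.10 and 0.70 ± 0.05 (SE, n = 8, limma adjusted p = 1.8e-05 and 1.3e-06). FAT1, which takes part in uptake and in activating very long chains, averaged 0.52 ± 0.08 (SE, n = 8, limma adjusted p = 0.00022). FAA1, FAA4 and FAT1 were named because their called ratios were the largest above 0 in the list. Their opposite sign to FAA2, PXA1 and PXA2 thus came with that choice, and no contrast is read from it.

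The gap between metabolic genes and peroxins differed from array to array. The median log2 ratio of the 16 metabolic genes was -1.68, -1.72, -1.56, -0.51, -1.30, -1.08, -0.79 and -1.34 on the arrays recorded at 16, 17, 19, 20, 21, 22, 23 and 24 h. The median of the 19 peroxins on the same arrays was -0.44, -0.40, -0.35, -0.36, -0.39, -0.34, -0.28 and -0.42. The metabolic median thus differed more between arrays than the peroxin median did, and the gap was smallest on the array recorded at 20 h. That array gave the highest ratio for 13 of the 16 metabolic genes and for 6 of the 19 peroxins, beside 28.7% of all genes. In the exchanged order, the metabolic median was lowest at 17 h and was higher at each later time.

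**Figure D2:**
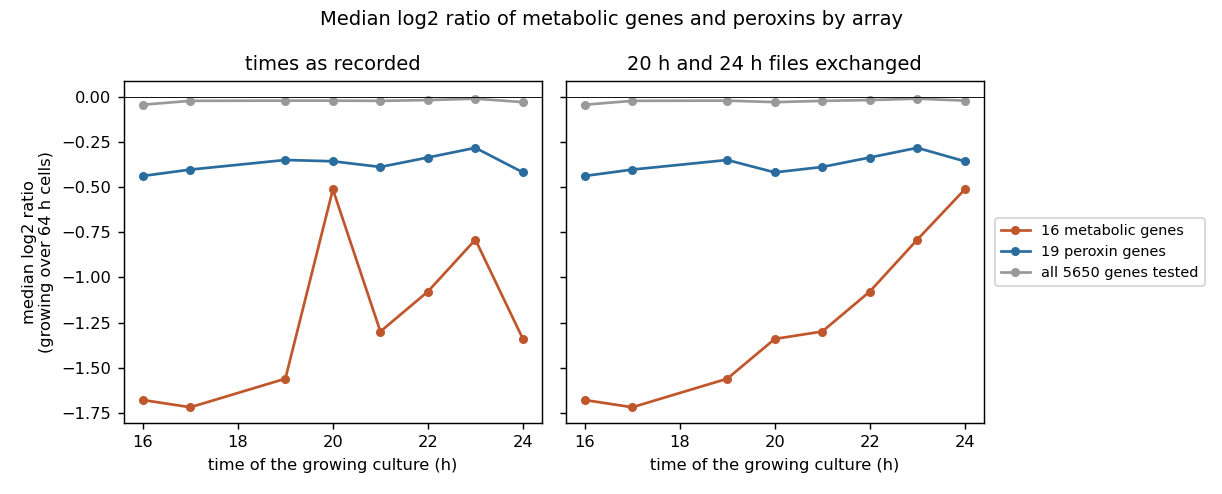
Median log2 ratio of growing over 64 h cells for the 16 metabolic genes, the 19 peroxins and all 5650 genes tested, plotted against the time of the growing culture in h, with the arrays at their recorded times on the left and in the exchanged order on the right. The metabolic median reaches -0.51 on the array recorded at 20 h, while the peroxin medians lie between -0.44 and -0.28.

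Change over the hours was tested as the slope of a straight line through the log2 ratios, in log2 units per h. With the times as recorded, no slope passed in limma, among the 37 genes (0.0%) or among all 5650 (0.0% rising and 0.0% falling). The lowest adjusted p was 0.71, and 385 genes had an unadjusted p under 0.05. On the 6 undisputed arrays, 4 of the 16 metabolic genes and 1 of the 19 peroxins rose and none fell, beside 5.20% of all genes rising and 3.17% falling. In the exchanged order, 8 metabolic genes and 1 peroxin rose and 1 peroxin fell, beside 10.5% and 8.58% of all genes. The regulators passed in none of these fits. Slopes were above 0 for 15 of the 16 metabolic genes on the 6 arrays (median 0.049) and for 10 of the 19 peroxins (median 0.0083), against 2934 of all 5650 genes. The 15 include YAT1 and YAT2, whose 64 h signal was saturated, so their slopes follow mainly the growing-cell signal and the scaling. Without the carnitine shuttle genes, the slopes of all 12 other metabolic genes were above 0 (median 0.053).

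After loess, POX1 and SPS19 had the steepest slopes among the 37 in each of the 3 time fits. The slope of POT1 depended on the processing, as given below. At 16, 17, 19, 20, 21, 22, 23 and 24 h as recorded, POX1 had log2 ratios of -1.80, -1.57, -1.33, 0.50, -0.91, -0.73, -0.23 and -1.08. SPS19 had ratios of -1.92, -1.87, -1.58, -0.21, -1.25, -0.78, -0.54 and -1.29 at the same times. Outside the arrays recorded at 20 h and 24 h, each later array was higher for both genes. The POX1 slope was 0.14 ± 0.08 per h as recorded (SE, limma adjusted p = 0.73), 0.20 ± 0.02 on the 6 arrays (limma adjusted p = 0.0011) and 0.25 ± 0.03 with the files exchanged (limma adjusted p = 0.00058). For SPS19 the slopes were 0.14 ± 0.06 (limma adjusted p = 0.71), 0.20 ± 0.02 (limma adjusted p = 0.0014) and 0.22 ± 0.02 (limma adjusted p = 0.00019). With the files exchanged, both genes rose at every step, as did 47 of the 5650 genes (0.832%); this count was looked at after the values were seen. Both slopes kept their calls in each leave-one-out fit on the 6 arrays and in the exchanged order, and on slide 1 alone they were 0.21 and 0.20 on the 6 undisputed arrays.

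**Figure D3:**
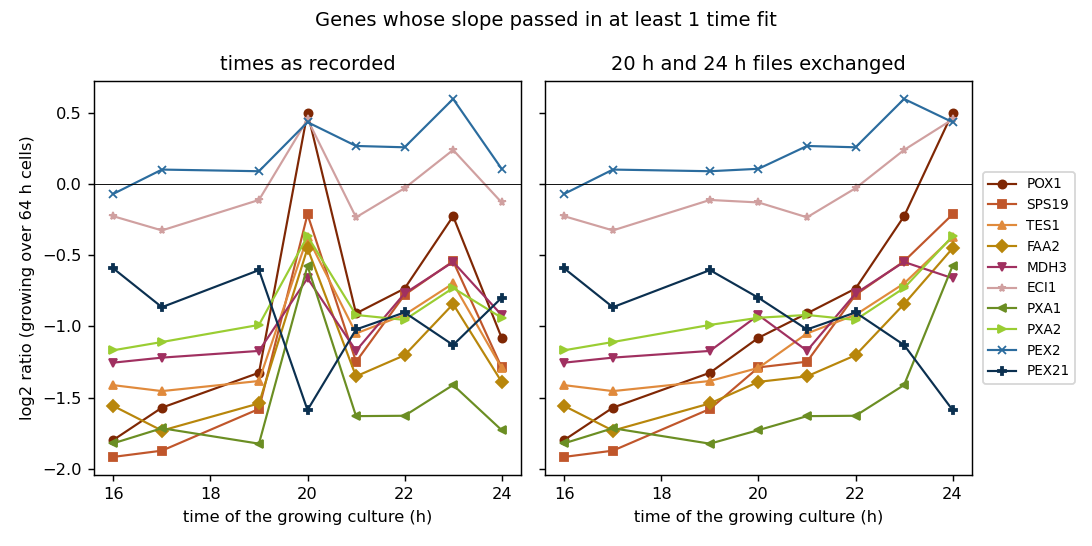
Log2 ratio of growing over 64 h cells against time in h for the 10 genes whose slope passed in at least 1 fit, with 1 point per array joined by lines, at the recorded times on the left and with the files of 20 h and 24 h exchanged on the right. For the 8 metabolic genes the file recorded at 20 h lies above both neighbours in the left panel, and for PEX21 it lies below them.

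TES1 and FAA2 rose less steeply in those fits. TES1 had ratios of -1.41, -1.45, -1.38, -0.37, -1.05, -0.92, -0.70 and -1.29 at the 8 recorded times, and FAA2 had -1.56, -1.73, -1.54, -0.45, -1.35, -1.20, -0.84 and -1.39. On the 6 arrays the slope was 0.10 ± 0.02 per h for both (SE, limma adjusted p = 0.013 for TES1 and 0.03 for FAA2), and with the files exchanged it was 0.13 ± 0.02 for both (limma adjusted p = 0.003 and 0.0053). Neither 6-array call held in every fit that left out 1 array. TES1 lost its call without the 22 h array (limma adjusted p = 0.052) or the 23 h array (limma adjusted p = 0.13), and FAA2 lost it without the array of 17, 19, 22 or 23 h (limma adjusted p between 0.058 and 0.24).

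Of the 3 time fits, MDH3, PXA2, PXA1 and ECI1 passed in the exchanged one alone, and the difference between the fits was not tested. With the slide as a block, MDH3 and PXA2 passed on the 6 arrays too, at 0.082 and 0.051 per h (limma adjusted p = 0.017 and 0.037). MDH3 had ratios of -1.25, -1.22, -1.17, -0.66, -1.17, -0.77, -0.55 and -0.92 at the recorded times, with a slope of 0.09 ± 0.02 per h in both further fits (SE, limma adjusted p = 0.057 on 6 arrays and 0.012 exchanged). PXA2 had -1.17, -1.11, -0.99, -0.37, -0.92, -0.95, -0.73 and -0.94, with slopes of 0.05 ± 0.02 (limma adjusted p = 0.089) and 0.08 ± 0.02 (limma adjusted p = 0.015). Its partner PXA1 had -1.82, -1.72, -1.82, -0.58, -1.63, -1.63, -1.41 and -1.73, with slopes of 0.05 ± 0.02 (limma adjusted p = 0.16) and 0.11 ± 0.03 (limma adjusted p = 0.049). Its 6 undisputed arrays thus lay between -1.82 and -1.41, and the file recorded at 20 h lay apart. ECI1 had -0.23, -0.33, -0.11, 0.45, -0.23, -0.03, 0.24 and -0.13, with slopes of 0.06 ± 0.02 (limma adjusted p = 0.14) and 0.08 ± 0.02 (limma adjusted p = 0.023). Without the file recorded at 20 h, the exchanged slopes of PXA1, PXA2 and ECI1 were 0.045, 0.051 and 0.055 and did not pass (limma adjusted p = 0.13, 0.059 and 0.11). PXA1 also lost its call without the array of 16, 19, 21, 23 or 24 h, and ECI1 without that of 23 h.

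FOX2 and POT1, the core partners of POX1, did not pass in these fits, but the result for POT1 turned on the processing. POT1 had slopes of 0.05 ± 0.02 per h on the 6 arrays and 0.11 ± 0.04 in the exchanged order (SE, limma adjusted p = 0.26 and 0.059, the second passing at 0.036 with the slide as a block and at 0.049 with median centring), and FOX2 had 0.0083 ± 0.028 and 0.033 ± 0.026 (SE, limma adjusted p = 0.89 and 0.41). CAT2 had slopes of 0.015 ± 0.019 on the 6 arrays and 0.07 ± 0.03 exchanged (SE, limma adjusted p = 0.68 and 0.16), and CRC1 had -0.019 ± 0.018 and 0.01 ± 0.02 (SE, limma adjusted p = 0.56 and 0.76). In the scanner software's ratios POT1 rose by 0.23 per h on the 6 arrays and by 0.31 exchanged (limma adjusted p = 0.038 and 0.0084). IDP3, whose growing-cell signal was near background as that of POT1 was, rose by 0.097 and 0.12 in those ratios (limma adjusted p = 0.048 and 0.012), against 0.0094 and 0.029 after loess (limma adjusted p = 0.83 and 0.34). In the exchanged order CAT2 passed in the scanner ratios too, at 0.115 (limma adjusted p = 0.041). Whether the POX1 slope differs from those of POT1 and FOX2 was not tested.

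Of the 19 peroxins, PEX2 and PEX21 passed in at least 1 of the 3 time fits. PEX2 had log2 ratios of -0.07, 0.10, 0.09, 0.43, 0.27, 0.26, 0.60 and 0.11 at the 8 recorded times, with a slope of 0.07 ± 0.02 per h in both further fits (SE, limma adjusted p = 0.049 on 6 arrays and 0.016 exchanged). The 6-array call was lost without the array of 16, 19, 21, 22 or 23 h (limma adjusted p between 0.051 and 0.33), and the exchanged call without that of 16 h (limma adjusted p = 0.069). PEX21 had -0.59, -0.87, -0.60, -1.59, -1.02, -0.90, -1.13 and -0.80, and its slope was -0.06 ± 0.02 on the 6 arrays (SE, limma adjusted p = 0.13) and -0.09 ± 0.02 with the files exchanged (limma adjusted p = 0.024). That call was lost without the array of 16, 20 or 23 h (limma adjusted p = 0.078, 0.11 and 0.051) and with arrays centred on their medians (limma adjusted p = 0.058), while on the 6 arrays PEX21 passed in the scanner software's ratios and with the slide as a block, at -0.079 and -0.067 (limma adjusted p = 0.047 and 0.023). Its coreceptor partner PEX18 had slopes of -0.01 ± 0.04 and 0.03 ± 0.03 (SE, limma adjusted p = 0.89 and 0.64), from signals at the edge of background. PEX8 missed the threshold on the 6 arrays at 0.05 ± 0.02 per h (SE, limma adjusted p = 0.23) and in the exchanged order at 0.07 ± 0.02 (limma adjusted p = 0.051), and it passed with the slide as a block in both, at slopes of 0.057 and 0.061 (limma adjusted p = 0.029 and 0.0061). With median centring PEX8 passed in the exchanged order at 0.078 (limma adjusted p = 0.036), and PEX15 fell there in the scanner software's ratios at -0.047 (limma adjusted p = 0.041).

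**Figure D4:**
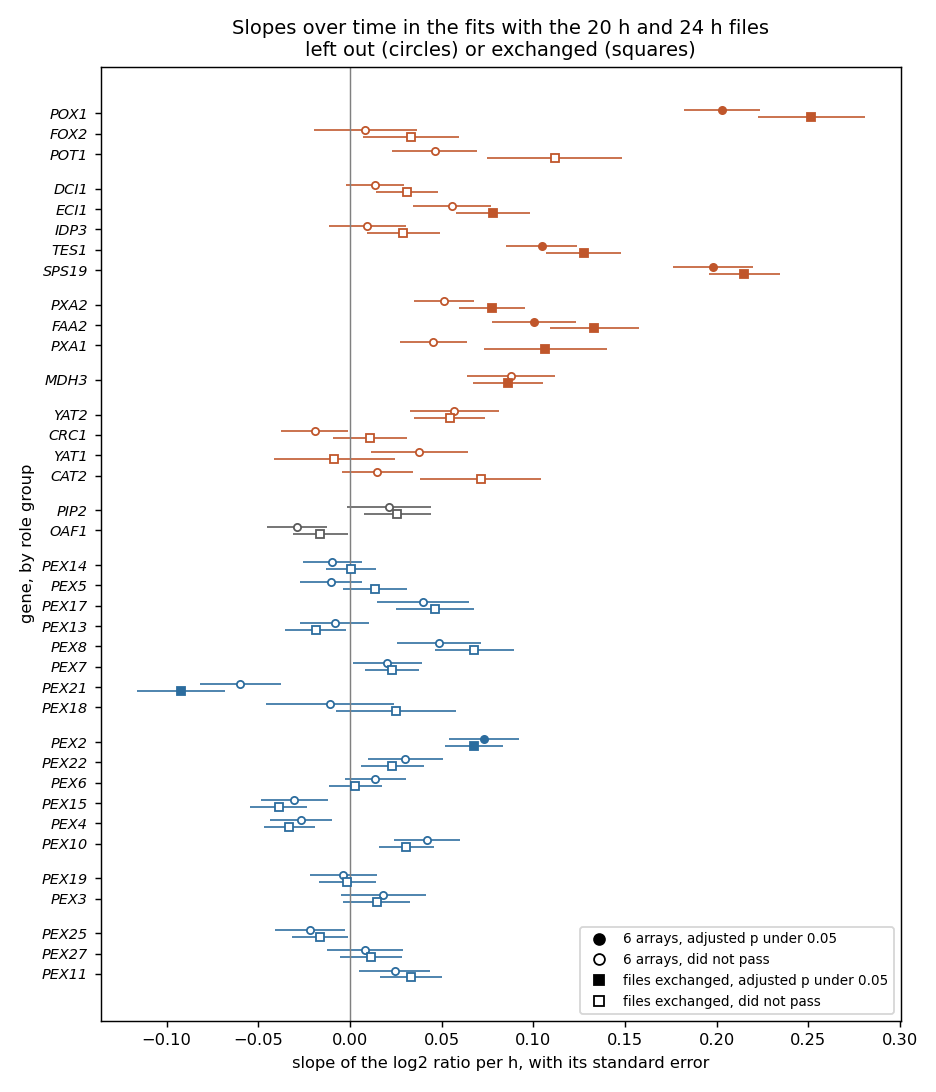
Slope of the log2 ratio per h for each of the 37 genes in the fit on the 6 undisputed arrays and in the exchanged fit, with bars of 1 SE; filled symbols passed an adjusted p of 0.05. POX1 and SPS19 stand furthest right in both fits, and most peroxin slopes lie near 0.

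The same line was fitted to the authors' value table, which is centred per gene on a log2 scale, at its own recorded times. Its values also hold a shift by slide. For POX1, FOX2 and POT1 they differ from the scanner software's ratios by a constant on slide 1 and another constant on slide 2. The main fits hold no such shift, so their counts and those given here are not on the same footing. Of the 16 metabolic genes, 11 rose in the authors' deposited table and none fell, while 6 of the 19 peroxins rose and 4 fell, beside 15.9% of its 5609 genes rising and 18.5% falling. The median slope there was 0.114 per h for metabolic genes, 0.017 for peroxins and 0.0060 for the regulators, none of which passed. POX1 in the authors' deposited table had values of -1.23, -0.67, -0.54, -0.31, 0.04, 0.20, 0.93 and 1.58 at 16 to 24 h, higher at each time than at the one before. The table shares the arrays of the scanner files and is therefore no independent replicate of them.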

How the data were processed

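Per the file headers, the deposited scanner files were made with Agilent Feature Extraction 10.5.1.1, which the submitters' processing notes also name, on a design annotated on the sacCer2 build. Per the file headers, the intensity values are the median signal and median local background of each spot and channel, not yet normalized. Per the file headers, the log10 ratio of red over green had been background-subtracted and dye-normalized by the scanner software. Marks for signal well above background, saturation and outliers stand beside them. The authors' deposited log2 table covers 5609 genes, centred per gene over its 8 columns in the direction Cy5 over Cy3 as judged from its values. A shift between the slides was seen in the members compared. Other steps are not given in the sources used here.

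Intensities were background-corrected (normexp, offset 50) and loess-normalized with limma 3.58.1 (R 4.3.3). Controls and outlier spots were dropped and the 2 spots per probe averaged. Of several probes of a gene (29 genes), the brightest was used. Genes entered the tests if 4 or more arrays were well above background in either channel (5650 of 6225). The log2 ratio was fitted on centred time with lmFit and eBayes, with Benjamini-Hochberg adjustment over all genes tested. A channel saturated on all 8 arrays yields a lower limit on the fold (at least N-fold): the mean of the bright channel, with saturated spots at their value, over that of the dim channel (loess, then Aquantile between arrays), open to dye bias. The limit holds for that scaling only. Symbols came from the R64 reference table, in which 5737 names of the array were found. Differences between related genes were tested on the 8 arrays over 7 pairs, a test added after the data were seen, as were the time fits' own alternatives.

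The members, the 34 further genes and the naming rule were chosen with earlier results of these data known. The rule names all 37 members and, of the further genes, the 3 with the largest called ratio in each direction plus CTA1, CIT2, ANT1, ADR1 and others that are not reported here. It gives array ranges for the 2 largest ratios of each role group, members opposite in sign to their group, related pairs and members with a called slope. Promoter motifs and targeting signals, also planned, are not analysed here. On simulated data over 5650 genes, the fit as recorded recovered 67 and 85 of 100 genes with slopes of 0.1 and 0.2 per h, the 6-array fit 63 and 94, and the exchanged fit 68 and 97. The same runs called 9, 7 and 9 unchanged genes for the slope and 9, 12 and 20 for the mean. Each run was made and fitted with the same times and with independent noise. The recoveries therefore do not show what the fit as recorded can find if the 20 h and 24 h files are exchanged. The 2 spots of a probe correlated at 0.978 to 0.984 across genes within an array, and the members' spots differed by a median of 0.107 in log2 ratio. The number of arrays limits the precision.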

Additional observations from a re-analysis of the deposited data

Results flagged for a closer look

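Each of the 37 genes was screened for an array that stood apart from the other 7, by the gap to its nearest neighbour as a share of the gene's whole range. Dixon's 95% critical value for 8 samples marked such an array in 5 of the 37 genes, and chance alone marks about 1 in 20. All genes share the same 8 arrays, and the share marked among all genes was not computed. No excess is therefore read from this count. The array recorded at 20 h gave the highest ratio for 28.7% of all genes. On the array recorded at 20 h, POT1 stood high at a log2 ratio of -1.90 (share 0.647), PXA1 at -0.58 (share 0.67), CAT2 at -3.90 (share 0.679) and PEX5 at 0.18 (share 0.551). The scanner file of that array is the one that matched the 24 h column of the authors' table, and the part of this mismatch in the values was not tested. PEX10 stood high on the array recorded at 23 h, at -0.81 (share 0.673).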

How the results depend on the processing

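Of the mean log2 ratios of the 37 genes under the alternatives, 703 kept their direction and side of the threshold, 17 lost a call, 9 gained one and 6 changed sign. The sign changes were ECI1 in the scanner software's ratios (0.056), DCI1 with median centring (-0.20), on slide 1 alone (-0.037), without the 20 h array (-0.025, against up to 0.044 with other arrays left out) and on the 6 undisputed arrays (-4.3e-05), and PEX5 on slide 2 alone (0.023); the cause was not tested. Leaving out each array in turn gave 14 metabolic genes lower in every case, 13 to 15 peroxins lower, 29 to 31 of the 37 lower, 3 higher in every case, and 2314 to 2470 genes lower and 2167 to 2315 higher in all. On slide 2 alone, which has only 3 arrays, 1499 genes were lower and 1247 higher, 1 of the 37 was higher, and POX1, SPS19, PEX8, PEX17, PEX22, PEX27, PEX2 and PEX25 lost their calls. The difference PEX11 minus PEX27 reversed with median centring (0.38). No scaling moved the median of all genes by over 0.1. Normalization places that median near 0 in advance, so this does not bear on single genes. The means of MDH3, PEX11 and POT1 moved by more, as given above.

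The slopes depended on the 20 h and 24 h files. As recorded 0 genes passed, also with each array left out (0 in each case), while the 6 arrays gave 294 rising, 179 falling, 4 metabolic genes and 1 peroxin, the exchanged files gave 594, 485, 8 and 2, and the authors' deposited table gave 890, 1040, 11 and 10. The PXA1 slope as recorded changed sign without the 16 h array (-0.0015, against up to 0.053 with other arrays left out). On the 6 arrays, leaving out each in turn gave 81 to 375 genes rising, 25 to 225 falling, 2 to 5 metabolic genes rising, 0 to 2 peroxins rising and 0 falling. Without the array of 16, 22 or 23 h there were 147, 148 and 81 genes rising and 47, 57 and 25 falling, without that of 19 h there were 95 falling, and without that of 22 or 23 h there were 2 metabolic genes rising. With the slide as a block there were 673 rising and 514 falling, with 2 peroxins rising and 1 falling. On slide 1 alone there were 692 and 558, with 3 and 2. Median centring gave 115 genes falling, and the scanner software's ratios gave 1 peroxin falling. With the files exchanged, leaving out each array in turn gave 349 to 696 genes rising, 214 to 584 falling, 5 to 8 metabolic genes rising, 0 to 3 peroxins rising and 0 to 1 falling. Without the array of 16, 20 or 23 h there were 395, 349 and 412 genes rising and 285, 214 and 303 falling, and without that of 20 h there were 5 metabolic genes rising. The slide as a block gave 956 rising, 751 falling and 2 peroxins rising. Slide 1 alone gave 3 peroxins rising, and slide 2 alone gave 1 gene rising, 0 falling, 0 metabolic genes and 0 peroxins, on 3 arrays. Median centring gave 2 peroxins rising and 0 falling, and the scanner software's ratios gave 2 falling. POT1, PEX18 and IDP3 were near background in growing cells, which limits their ratios. Growing and 64 h RNA were compared within each array, and no pairing between arrays was possible because they form 1 group.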
